A study of Mus musculus with 12 samples.

Results

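The 37 genes described here are nuclear genes whose proteins act on RNA inside mitochondria, without the mitoribosomal proteins. They were taken from a fixed list of names and comprise 4 genes of mitochondrial transcription, 9 of RNA processing and stability, 8 translation factors and 16 mitochondrial aminoacyl-tRNA synthetases. Among the 38887 genes in the tables, all 37 were found and all 37 had enough counts to be among the 12846 genes tested. The 12 RNA-Seq libraries came from bone marrow-derived macrophages (BMMs) of WT and IGF2BP2 KO mice, 3 to 4 months old, differentiated for 6 days with 50 ng/ml M-CSF, the growth factor of macrophages. Cells were left untreated (M0) or received 20 ng/ml IL-4, a cytokine of alternative activation, for 8 h (M2), with 3 libraries in each of the groups WT M0, KO M0, WT M2 and KO M2. KO mice, from a floxed line on a B6.Cg background, carried loxP sites around exons 4 and 5 of Igf2bp2, which encodes an RNA-binding protein, and expressed Cre from the Lyz2 locus, which acts in myeloid cells. The WT controls were littermates with no floxed allele, some with and some without Cre, so Cre and the change at Lyz2 cannot be told apart from the loss of IGF2BP2 in the KO. Replicates of a group are the numbered libraries, and p-values measure the spread between them.

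Mitochondria keep a small genome that is copied into long transcripts from both strands by the polymerase POLRMT with the help of TFAM and TFB2M. The transcripts are cut into mRNAs, tRNAs and rRNAs, stabilized by LRPPRC with SLIRP, handled by proteins of the FASTK family, and translated on mitochondrial ribosomes with initiation, elongation and release factors and a set of tRNA synthetases of their own. In macrophages, alternative activation with IL-4 is known for a reliance on oxidative phosphorylation, whose core subunits are made by this machinery. The tables held 0 of the 37 genes of the mitochondrial genome itself, so the RNAs on which these factors act were not analysed here.

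Library totals lay between 20011792 and 39632770 counts, and the smallest count of any member in any library was 87, for Pars2. The macrophage markers summed to 3840 to 4710 TPM (a level corrected for transcript length, relative to the library) in every library, the IL-4-induced markers rose from 65.7 to 119 TPM in M0 to 6440 to 8130 TPM in M2, and the B and T cell markers reached at most 0.12 TPM. Among the IL-4 markers Cd209a stayed near 0. Within the macrophage markers, Cd14 (81.9 to 830 TPM) and Fcgr1 (30.2 to 82.2 TPM) were lower in M2 than in M0 of each genotype. Adgre1 (429 to 838 TPM) was higher in M2, and Mertk lay at 1.85 to 3.3 TPM. At an edgeR adjusted p under 0.05, 4 of the 8 rose and 3 fell with IL-4 in WT (24.9% and 25.1% of all genes). In KO 2 rose and 2 fell (26.8% and 26.0% of all genes). Igf2bp2, counted over the whole gene with the exons that remain, differed between KO and WT by a log2 of -0.11 in M0 (edgeR adjusted p = 0.656, SE 0.13) and of -0.65 in M2 (edgeR adjusted p = 0.0285, SE 0.13). By Western blot and qPCR, the paper reports that IGF2BP2 protein and mRNA were nearly undetectable in BMMs of KO mice. Among the markers whose level moved with a group, the 7 proliferation genes summed to 2310 to 2510 TPM in M0 of WT and 2050 to 2140 in M0 of KO, and with IL-4 to 1380 to 1520 TPM in WT and 1210 to 1270 in KO. Stromal markers summed to 17.0 to 35.0 TPM in WT and 5.10 to 17.6 TPM in KO, and neutrophil markers to 14.2 to 61.3 TPM in WT and 13.7 to 19.2 in KO. The 5 dendritic cell markers summed to 0.18 to 0.53 TPM in M0 and 0.85 to 1.12 TPM in M2. Their part in the results below was not tested.

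The start regions of the genes are shown first, because several of them hold binding motifs of the regulators that are known for nuclear genes of mitochondria. RefSeq windows of 300 bases, from 250 before to 50 after the annotated start on GRCm38.p6, were matched for 34 of the 37 members. The motif of NRF1, a general activator of such genes, was searched as GCGCNTGCG with its reverse CGCANGCGC and was found in 8 of 35 member windows (22.9%, Aars2 having a pair of windows), against 6.31% of all 32851 windows. The ETS motif bound by GABP, CCGGAAGT, was found in 5 member windows (14.3%, against 3.89% of all), namely those of Tfam, Tufm, Gfm1, Rars2 and Fastkd5. The E-box CACGTG occurred in 2 (5.71%, against 7.15%), those of Ears2 and Fastkd1. Shown are the windows of Fastkd3, Vars2 and Gfm2, which hold NRF1 motifs and whose RNAs moved in opposite directions with IL-4 in WT, and of Rcc1l, the member with the clearest dependence on genotype, whose window held none of the motifs. Each is written 5′ to 3′ on the strand of the gene, with NRF1 matches on either strand in capitals, and in the Vars2 window a pair of matches overlap.
Fastkd3 (chr13:68581960-68582259, plus strand): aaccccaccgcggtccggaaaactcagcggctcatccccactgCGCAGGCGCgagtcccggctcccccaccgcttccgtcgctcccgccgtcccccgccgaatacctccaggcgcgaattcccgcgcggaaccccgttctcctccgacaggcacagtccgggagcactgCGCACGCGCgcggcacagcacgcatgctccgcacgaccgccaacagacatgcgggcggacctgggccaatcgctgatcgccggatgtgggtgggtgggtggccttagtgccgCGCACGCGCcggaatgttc
Vars2 (chr17:35667543-35667842, minus strand): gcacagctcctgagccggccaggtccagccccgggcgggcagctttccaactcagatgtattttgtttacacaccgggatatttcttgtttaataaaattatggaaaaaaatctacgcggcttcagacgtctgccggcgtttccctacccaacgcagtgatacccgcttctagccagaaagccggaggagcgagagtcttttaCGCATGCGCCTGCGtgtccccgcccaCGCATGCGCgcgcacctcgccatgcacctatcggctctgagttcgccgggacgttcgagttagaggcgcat
Gfm2 (chr13:97137687-97137986, plus strand): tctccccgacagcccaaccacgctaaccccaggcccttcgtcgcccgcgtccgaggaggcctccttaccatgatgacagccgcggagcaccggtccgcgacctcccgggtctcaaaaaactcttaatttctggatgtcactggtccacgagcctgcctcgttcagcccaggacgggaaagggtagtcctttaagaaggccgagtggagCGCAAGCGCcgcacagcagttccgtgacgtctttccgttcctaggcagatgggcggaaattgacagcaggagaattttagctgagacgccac
Rcc1l (chr5:134176718-134177017, minus strand): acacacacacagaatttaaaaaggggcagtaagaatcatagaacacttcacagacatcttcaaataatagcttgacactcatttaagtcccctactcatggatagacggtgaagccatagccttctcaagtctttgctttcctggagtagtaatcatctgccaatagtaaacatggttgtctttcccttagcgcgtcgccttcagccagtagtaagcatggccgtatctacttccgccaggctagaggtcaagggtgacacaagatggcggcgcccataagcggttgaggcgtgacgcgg
A match in letters is a description, not a site of binding.

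Levels of the members spanned from 4.07 to 147 TPM as means over the 12 libraries, with a median of 22.9 TPM against 18.5 TPM for all genes tested. In the transcription group, Tfam, which packages the mitochondrial genome and bends its promoters, was highest with 34.7 TPM and Tfb1m, a methyltransferase of the mitochondrial 12S rRNA, lowest with 10.5 TPM. Among the RNA processing genes, Slirp, the small partner of LRPPRC, reached 144 TPM, and Fastkd5, which takes part in the processing of transcripts that lack flanking tRNAs, 7.20 TPM. Tufm, the elongation factor that brings aminoacyl-tRNAs to the ribosome, led the translation factors with 106 TPM, and Mtrf1, a release factor, was lowest with 8.51 TPM. The median of the synthetases, 13.0 TPM, was the lowest of the 4 groups, with 23.5 TPM for transcription, 27.6 for translation factors and 32.5 for RNA processing. Their range ran from Wars2, the tryptophanyl-tRNA synthetase, with 4.07 TPM to Lars2, the leucyl-tRNA synthetase, with 147 TPM. Neighbors in this order mostly had overlapping ranges over libraries, as Tfam with 29.2 to 42.8 TPM and Iars2 with 29.3 to 38.8 TPM, whereas Tufm (91.4 to 117 TPM) stood clear of Gfm1 (71.4 to 90.6 TPM).

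**Figure D1:**
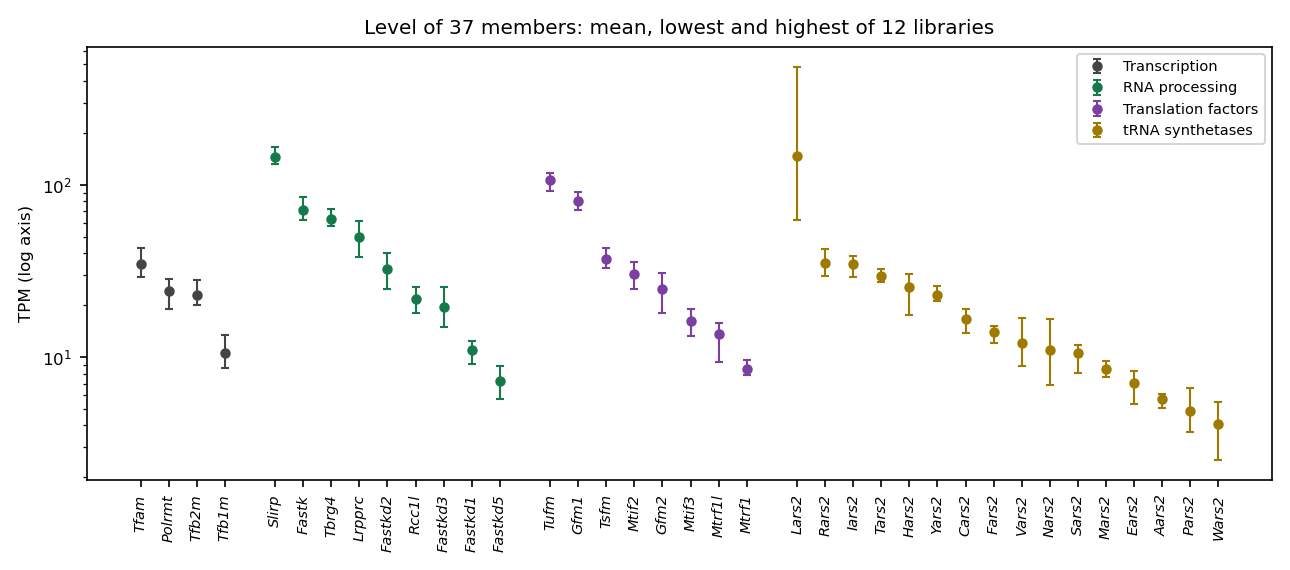
The level of each of the 37 members in TPM on a log axis, ordered within the 4 role groups, with the point at the mean of the 12 libraries and the bar from the lowest to the highest library. Most bars are short, while that of Lars2 runs from 62.2 to 485 TPM.

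Lars2 stood apart from the other members before any comparison was made. In CPM (counts relative to the library total after TMM scaling, not corrected for length), its values were 261, 184 and 815 in WT M0, 343, 179 and 1060 in WT M2, 173, 135 and 204 in KO M0, and 178, 164 and 137 in KO M2. The third WT culture was thus high both without and with IL-4, and the remaining 10 libraries lay between 135 and 343 CPM. The spread within groups, as an SD of log2 CPM, was 0.88 for Lars2 and 0.16 for the next member, Pars2, with a median of 0.08 over the members and 0.11 over all genes tested. The noncoding gene Gm42418, named in RefSeq as a synonym of an 18S rRNA related sequence and picked out after its values were seen, was high in the same libraries. Gm42418 had 1050, 811 and 5460 CPM in WT M0, 1550, 673 and 7120 in WT M2, 628, 477 and 898 in KO M0, and 595, 529 and 443 in KO M2. Gm26917, which lies just upstream of it on chromosome 17, had 43.5 and 58.5 CPM in the third WT culture and 14.7 to 27.1 CPM in the others. Transcripts of Lars2 shared 0 words of 25 bases with either gene and 0 with the transcripts of the mitochondrial genome, but 28 with Gm15564, a further noncoding gene. The part of such RNA in the Lars2 counts was not tested.

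**Figure D2:**
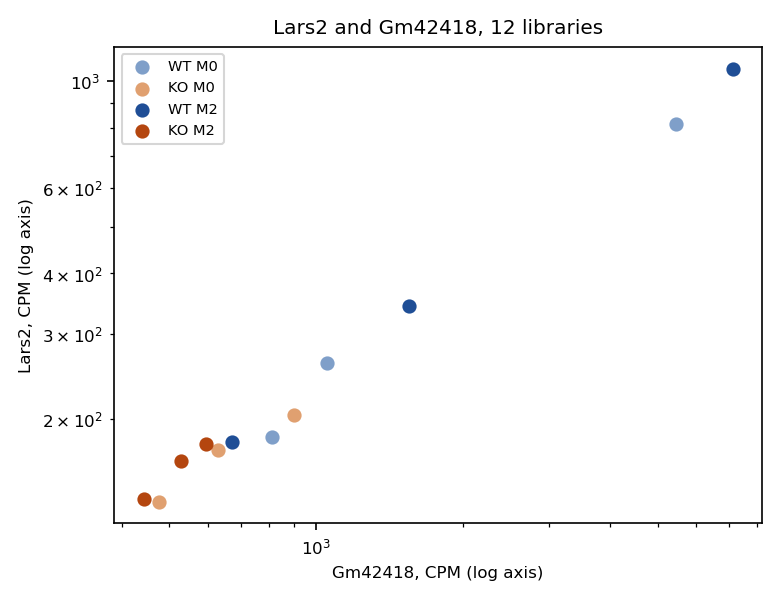
Lars2 (vertical axis) against Gm42418 (horizontal axis) in the 12 libraries, both in CPM on log axes, one point per library colored by group. The 2 libraries of the third WT culture lie at the upper right with 815 and 1060 CPM of Lars2, and the other 10 lie at 343 CPM or less.

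Lars2 also had the largest fold change of the members between genotypes, with a log2 of -1.30 in M0 (edgeR adjusted p = 0.194, SE 0.59) and of -1.73 in M2 (edgeR adjusted p = 0.138, SE 0.60), and neither was called. Without the third WT culture they were -0.38 in M0 (edgeR adjusted p = 0.347) and -0.71 in M2 (edgeR adjusted p = 0.0939). The sum of all members lay between 1095 and 1558 TPM per library. With Lars2 left out, the sum of the other 36 lay between 1005 and 1063 TPM in M0 and between 1073 and 1111 in M2 of WT, and in KO between 1019 and 1045 in M0 and between 1101 and 1139 in M2. On this scale the groups of each genotype did not overlap between M0 and M2, and those of WT and KO overlapped in either treatment.

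The question of the IL-4 comparisons was whether alternative activation changed the machinery, in WT macrophages first. In WT, 11 of the 37 members rose and 3 fell with an adjusted p under 0.05 (edgeR quasi-likelihood test, adjusted over all 12846 genes), which is 37.8% of the members. Of all genes tested, 50.0% were called in this comparison, 24.9% higher and 25.1% lower. The median log2 fold change of the members was 0.11, against -0.008 for all genes. In KO macrophages, 20 members rose and 3 fell (62.2%), where 52.8% of all genes were called, 26.8% higher and 26.0% lower, and the median was 0.20 against 0.014 for all genes. With limma on log2(TPM + 1) the counts were lower, at 12 members in KO (32.4%, against 45.5% of all genes) and 9 in WT (24.3%, against 44.4%), so in KO the members' share lay above that of all genes with edgeR and below it with limma. Without the third WT culture, edgeR called 9 members in WT (24.3%, against 47.0% of all genes). When each of the 6 libraries of a comparison was left out in turn, 7 of the 14 calls in WT were lost at least once (Fastk, Mtif2, Pars2, Tars2, Tbrg4, Tfb2m and Vars2), as were 5 of the 23 in KO (Mtrf1, Pars2, Polrmt, Tfb1m and Yars2). The KO call of Yars2 (edgeR adjusted p = 0.0499) was lost in all 6 of these fits and in all 8 other alternatives. In bulk RNA, fewer cells of a type and less RNA per cell cannot be told apart. The WT and KO comparisons use separate libraries, and 13 members (35.1%, against 39.7% of all genes) were called in both with the same direction, 10 (27.0%, against 12.8%) in KO alone, 1 (2.70%, against 9.98%) in WT alone and 13 (35.1%, against 37.2%) in neither. Of the 10 called in KO alone, 1, Rcc1l, passed the test of the difference between the responses. The numbers of a genotype mark cultures measured in M0 and M2, and from M0 to M2 17 of the 37 members (45.9%) were higher in all 6 cultures, against 28.1% of all genes tested, and 5 (13.5%) were lower in all 6, against 27.8%.

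**Figure D3:**
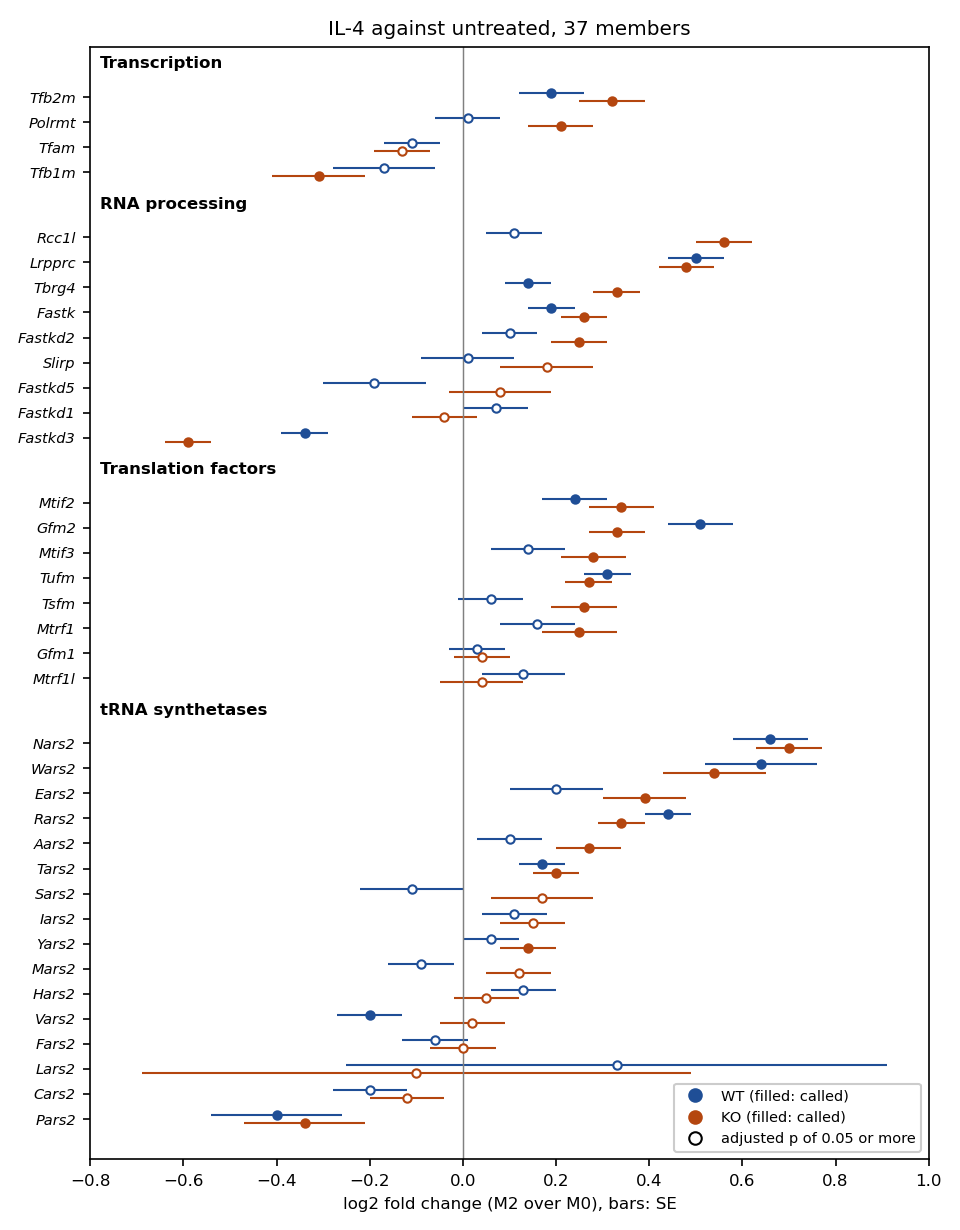
The log2 fold change of IL-4 against untreated for each member, grouped by role, in WT (blue) and KO (orange), with bars of 1 SE and filled points at an adjusted p under 0.05. In WT, Nars2 and Wars2 have the largest rises and Fastkd3 and Pars2 the largest falls among called members, and the 8 translation factors lie right of 0 in both genotypes.

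The aminoacyl-tRNA synthetases, which load each tRNA with its amino acid, held the largest rises in WT. Nars2, for asparagine, rose from 8.57, 8.54 and 8.41 CPM in WT M0 to 14.1, 13.8 and 12.6 CPM in WT M2, by a log2 of 0.66 (edgeR adjusted p = 1.18e-05, SE 0.08). In KO it rose from 9.48, 8.78 and 9.79 CPM to 15.1, 14.4 and 16.1 CPM (log2 fold change 0.70, SE 0.07, edgeR adjusted p = 3.85e-06). No M2 library overlapped an M0 library in either genotype, as was so for 55.2% of all genes in WT and 63.4% in KO. Of the members, 14 lay above and 4 below in WT without overlap, and 22 and 5 in KO. Wars2 went from 6.57, 5.29 and 4.60 CPM to 9.09, 8.09 and 8.54 CPM in WT (0.64, SE 0.12, edgeR adjusted p = 0.00067). Its KO values were 6.02, 6.23 and 6.50 CPM in M0 and 9.04, 9.65 and 8.59 CPM in M2 (0.54, SE 0.11, edgeR adjusted p = 0.00149), again without overlap. Rars2, for arginine, went from 27.2, 28.0 and 27.7 CPM to 38.4, 38.6 and 35.1 CPM in WT (0.44, SE 0.05, edgeR adjusted p = 2.22e-05). In KO, Rars2 had 29.4, 28.9 and 30.7 CPM in M0 and 35.9, 38.1 and 38.7 CPM in M2 (0.34, SE 0.05, edgeR adjusted p = 0.000119). These 3 enzymes and Tars2, for threonine, were the synthetases that rose in WT, so 4 of 16 rose, where 24.9% of all genes did.

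Among the synthetases 2 fell in WT. Pars2, for proline, had 5.95, 7.10 and 6.23 CPM in M0 and 5.27, 4.48 and 4.86 CPM in M2 (-0.40, SE 0.14, edgeR adjusted p = 0.0282). In KO its values were 7.75, 5.89 and 5.78 CPM in M0 and 5.05, 5.49 and 4.68 CPM in M2 (-0.34, SE 0.13, edgeR adjusted p = 0.0408). The Pars2 groups did not overlap, although its counts were the fewest of the members. Among all genes, 27.3% in WT and 31.3% in KO lay below in M2 without overlap. Leaving out 1 library in turn ended the Pars2 call in 3 of 6 fits in each genotype (edgeR adjusted p up to 0.116 in WT and 0.188 in KO). Without the third WT culture its WT call was also lost (edgeR adjusted p = 0.0762), and its KO call was lost in 4 of 8 further alternatives. Vars2, for valine, had 17.5, 17.5 and 16.4 CPM in WT M0 and 16, 14.7 and 14.0 CPM in WT M2 (-0.20, SE 0.07, edgeR adjusted p = 0.0348). Its KO libraries overlapped, with 16.5, 14.9 and 14.9 CPM in M0 and 15.0, 16.5 and 15.2 CPM in M2 (0.02, SE 0.07, edgeR adjusted p = 0.862). The WT call of Vars2 was lost in 4 of 6 fits without 1 library (edgeR adjusted p up to 0.128) and in 6 of 9 other alternatives (adjusted p up to 0.497). In KO, 7 of the 16 synthetases rose (26.8% of all genes did) and 1 fell (26.0% of all genes). Of the 7 rises, those of Aars2 and Tars2 were each lost in 2 of 8 alternatives other than leaving out 1 library, and that of Yars2 in all 8. The remaining synthetases had log2 fold changes between -0.20 (Cars2) and 0.33 (Lars2) in WT. The 18 cytosolic synthetases, which serve the ribosomes outside mitochondria, had 11 genes higher and 0 lower in WT (24.9% and 25.1% of all genes) and 12 higher and 0 lower in KO (26.8% and 26.0% of all genes). The largest of these were Rars, with 1.28 in WT and 1.22 in KO, and Iars, with 1.1 and 0.93. Of the 2 enzymes that serve both compartments, Kars rose by 0.33 in either genotype and Gars by 0.18 in KO (edgeR adjusted p = 0.0164), with 0.05 in WT (edgeR adjusted p = 0.482). The difference between the Gars responses was not called (edgeR adjusted p = 0.436).

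All 8 translation factors had a positive fitted log2 fold change in both genotypes, as did 49.1% of all genes in WT and 51.5% in KO. In WT 3 of 8 rose and in KO 6 of 8, where 24.9% and 26.8% of all genes did, and none of the 8 passed the test of the difference between the responses (lowest edgeR adjusted p = 0.303). The KO calls of Gfm2, Mtif2 and Tsfm were each lost in 2 of 8 alternatives other than leaving out 1 library (adjusted p up to 0.118, 0.116 and 0.151). That of Mtrf1 was lost in 3 of the 8 (up to 0.167), and the WT call of Mtif2 in 2 of 9 (up to 0.0626). Gfm2, which helps to split the ribosome after translation, rose from 34.8, 35.0 and 29.4 CPM to 48.4, 47.9 and 44.7 CPM in WT (log2 fold change 0.51, SE 0.07, edgeR adjusted p = 3.26e-05). In KO it had 35.7, 36.3 and 35.0 CPM in M0 and 44.4, 43.8 and 46.1 CPM in M2 (0.33, SE 0.06, edgeR adjusted p = 0.000797). Gfm2 overlaps Nsa2 on the opposite strand, and as the strand setting of the counting is not given in the sources used here, their reads cannot be told apart. In all, 18 members overlap another gene in the tables on either strand, among them Nars2, Slirp, Tsfm and Vars2, and for 4 of the 18 an overlapping gene lies on the same strand, while Rcc1l, Fastkd2 and Fastkd3 overlap no gene in the tables. Tufm had 85.0, 88.2 and 85.0 CPM in WT M0 and 108, 108 and 104 CPM in WT M2 (0.31, SE 0.05, edgeR adjusted p = 0.000129). In KO, Tufm had 91.7, 88.6 and 89.3 CPM in M0 and 116, 106 and 104 CPM in M2 (0.27, SE 0.05, edgeR adjusted p = 0.000283). All M2 libraries lay above all M0 libraries for both genes, as for 27.9% of all genes in WT and 32.1% in KO. Mtif2, the initiation factor that places the first tRNA, was the third factor called in WT (0.24, SE 0.07, edgeR adjusted p = 0.0133). The lowest values of the group were 0.03 in WT, for Gfm1, the elongation factor of translocation, and 0.04 in KO, for both Gfm1 and the release factor gene Mtrf1l.

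In the RNA processing group, 3 of 9 genes rose and 1 fell in WT, where 24.9% of all genes rose and 25.1% fell, and 5 rose and 1 fell in KO, where 26.8% rose and 26.0% fell. The KO call of Fastk was lost in 2 of 8 alternatives other than leaving out 1 library. In WT those of Fastk and Tbrg4 were lost in 2 and 6 of 9. Lrpprc, which stabilizes mitochondrial mRNAs, went from 109, 103 and 93.4 CPM to 146, 151 and 134 CPM in WT (log2 fold change 0.50, SE 0.06, edgeR adjusted p = 2.25e-05). In KO it went from 104, 97.2 and 101 CPM to 136, 143 and 141 CPM (0.48, SE 0.06, edgeR adjusted p = 2.62e-05). Its partner Slirp had a log2 fold change of 0.01 in WT and 0.18 in KO and was not called (edgeR adjusted p = 0.947 and 0.145). Fastkd3, a FASTK protein that acts on several mitochondrial mRNAs, was the only gene of this group that fell. It had 26.5, 28.2 and 26.4 CPM in WT M0 and 20.9, 21.2 and 21.9 CPM in WT M2 (-0.34, SE 0.05, edgeR adjusted p = 0.000165), and 31.8, 29.9 and 32.4 CPM in KO M0 and 20.8, 20.5 and 21.2 CPM in KO M2 (-0.59, SE 0.05, edgeR adjusted p = 7.54e-07). It fell in each of the 6 cultures, by 0.27 to 0.61 on the log2 scale of CPM.

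The 4 transcription genes did not share a direction. Tfb2m, which opens the promoter for the polymerase, rose in WT (log2 fold change 0.19, SE 0.07, edgeR adjusted p = 0.0335) and KO (0.32, SE 0.07, edgeR adjusted p = 0.00117). Its WT groups overlapped, and the WT call was lost in 4 of 6 fits without 1 library (edgeR adjusted p up to 0.158) and in 5 of 9 other alternatives (adjusted p up to 0.292). The KO call of Tfb2m held in the fits without 1 library and was lost in 2 of 8 other alternatives (adjusted p up to 0.127). Tfb1m was at -0.17 in WT (edgeR adjusted p = 0.226) and fell in KO by 0.31 (SE 0.10, edgeR adjusted p = 0.026), a call lost in 2 of 6 fits without 1 library (edgeR adjusted p up to 0.139). Tfam was at -0.11 and -0.13 and was not called (edgeR adjusted p = 0.162 and 0.0883). The polymerase gene Polrmt was at 0.01 in WT (edgeR adjusted p = 0.896) and rose in KO by 0.21 (edgeR adjusted p = 0.0185), which was lost in 4 of these 6 fits (edgeR adjusted p up to 0.0807).

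The KO against WT comparisons asked whether loss of IGF2BP2 changed these genes within a treatment. In M0, 3 of 37 members were called (8.11%, against 9.78% of all genes tested), 1 higher (5.50% of all genes) and 2 lower (4.27%). All 3 are genes of the RNA processing group, and a difference between role groups was not tested. At an unadjusted p under 0.05 there were 4 of 9 RNA processing genes and 4 of 16 synthetases, where 25.3% of all genes had such a p. The median over the members was -0.03, with 23 negative and 14 positive values, and the median size of the change was 0.076, against 0.119 for all genes. In M2, 1 of 37 was called (2.70%, against 2.68% of all genes, with 1.21% higher and 1.46% lower), and the median was 0.04. The shares of members called are thus close to those of genes in general. Groups of 3 did not overlap for 11 members in M0 (4 above, 7 below in KO) and 8 in M2 (6 above, 2 below), whereas 31.1% and 24.8% of all genes did not overlap.

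**Figure D4:**
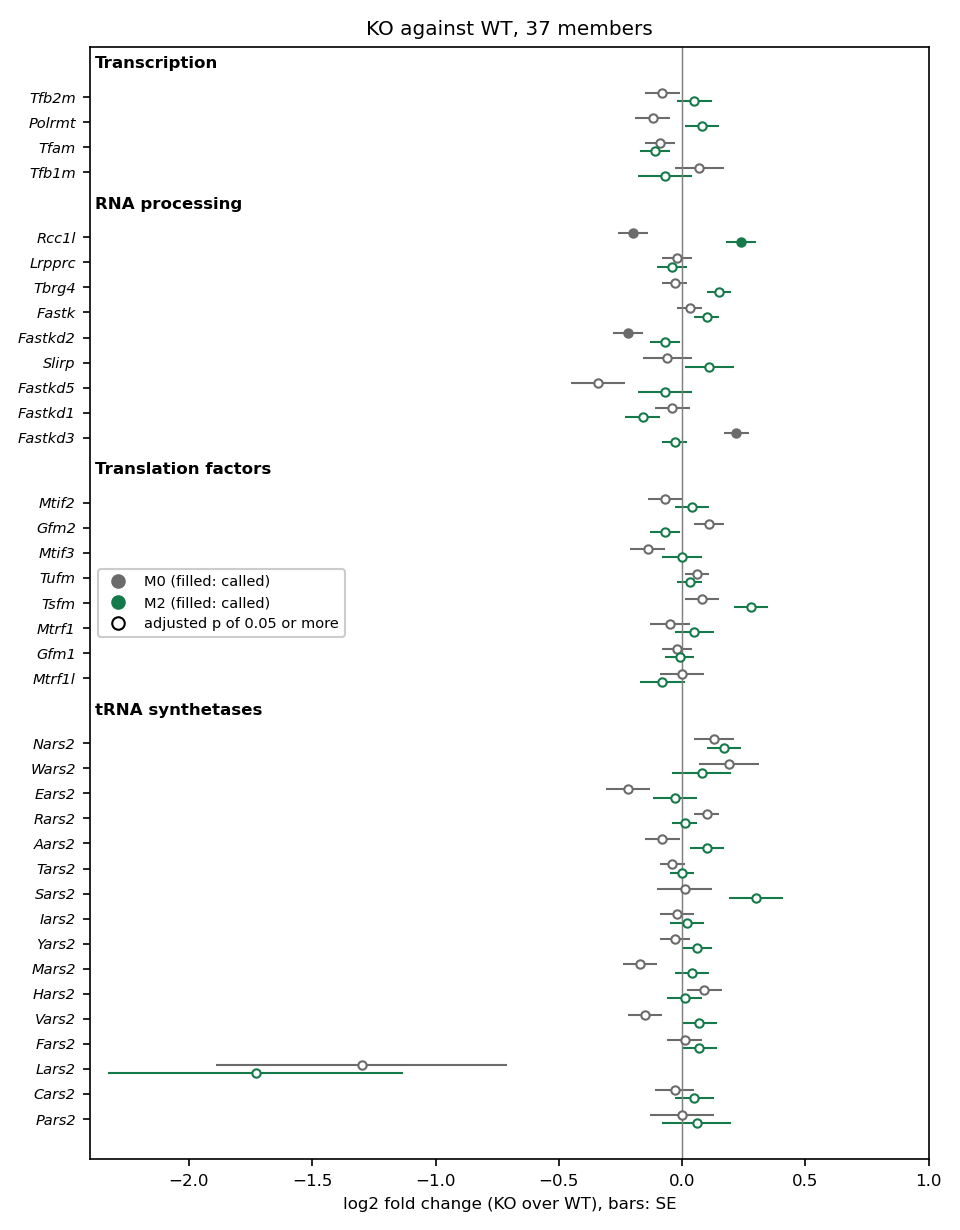
The log2 fold change of KO against WT for each member, in M0 (grey) and M2 (green), with bars of 1 SE and filled points at an adjusted p under 0.05. The filled points are Rcc1l, Fastkd2 and Fastkd3 in M0 and Rcc1l in M2, and Lars2 is far to the left with long bars.

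Rcc1l, a guanine nucleotide exchange factor-like protein of the inner membrane that takes part in mitoribosome assembly and pseudouridylation of mitochondrial RNA, lies at chr5:134148054-134176774 on the minus strand (GRCm38). It was lower in KO than in WT before IL-4 and higher after it. In M0 it had 23.6, 24.9 and 27.1 CPM in the WT libraries against 21.4, 22.3 and 21.8 CPM in the KO libraries, a log2 difference of -0.20 (edgeR adjusted p = 0.0388, SE 0.06). In M2 they were 26.6, 27.5 and 27.6 CPM in the WT libraries against 33.1, 32.0 and 31.6 CPM in the KO libraries (0.24, SE 0.06, edgeR adjusted p = 0.0421). The genotypes did not overlap in either treatment, and the order was reversed between them. IL-4 raised Rcc1l by 0.56 in KO (SE 0.06, edgeR adjusted p = 2.39e-06), and in WT the value was 0.11 (SE 0.06, edgeR adjusted p = 0.116). By culture, the change from M0 to M2 was 0.17, 0.15 and 0.03 in WT and 0.63, 0.52 and 0.53 in KO on the log2 scale of CPM. The KO response exceeded that of WT by 0.45 (edgeR adjusted p = 0.0115, SE 0.08), so that KO macrophages gained more Rcc1l. It was the only member called in this test, 1 of 37 (2.70%), where 3.24% of all genes were called (1.11% higher, 2.13% lower). The single-treatment calls were near the threshold. In M0 the gene was no longer called in 5 of 6 fits with a single library removed (all but that without WT M0 number 1, edgeR adjusted p from 0.0222 to 0.122), and in M2 in all 6 (edgeR adjusted p from 0.0635 to 0.126). The difference between the responses was called in all 12 such fits (edgeR adjusted p from 0.00502 to 0.0364). It was lost in 1 of 8 other alternatives, limma on log2(TPM + 1) (limma adjusted p = 0.0502).

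Fastkd3 was higher in KO than in WT in M0, with the values given above and a log2 difference of 0.22 (edgeR adjusted p = 0.0201, SE 0.05). In M2 the genotypes overlapped (-0.03, SE 0.05, edgeR adjusted p = 0.763). The KO response to IL-4 minus that of WT was -0.25 (SE 0.07, edgeR adjusted p = 0.0889), which was not called. The M0 call was lost without WT M0 number 1, KO M0 number 1 or KO M0 number 3 (edgeR adjusted p = 0.0525, 0.065 and 0.0912). Fastkd2, which binds mitochondrial 16S rRNA, was lower in KO in M0, with 39.2, 35.9 and 32.9 CPM in the WT libraries against 31.2, 30.5 and 31.4 CPM in the KO libraries (-0.22, SE 0.06, edgeR adjusted p = 0.0457). In M2 its groups overlapped, with 38.8, 40.5 and 36.8 CPM in the WT libraries against 37.1, 37.5 and 36.1 CPM in the KO libraries (-0.07, SE 0.06, edgeR adjusted p = 0.574). Its call was lost in 5 of 6 fits without 1 library, all but that without WT M0 number 3 (edgeR adjusted p from 0.0106 to 0.157). With a block for the library number, which does not pair the genotypes, none of the 4 calls between genotypes held (edgeR adjusted p = 0.0812 and 0.0928 for Rcc1l, 0.0707 for Fastkd3 and 0.0776 for Fastkd2).

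**Figure D5:**
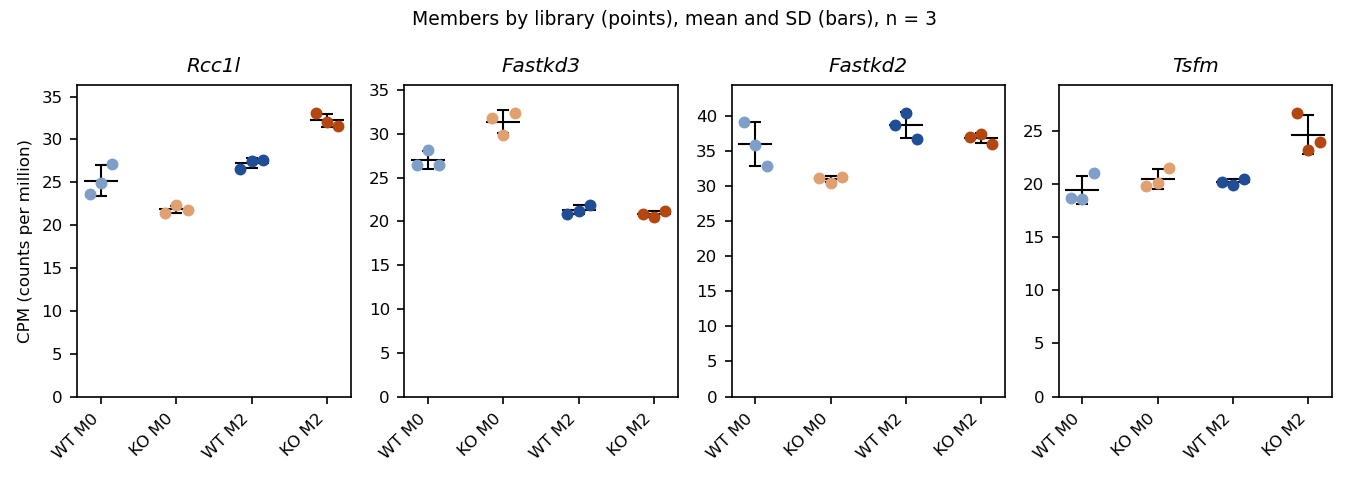
CPM of Rcc1l, Fastkd3, Fastkd2 and Tsfm in the 12 libraries, one point per library, with the mean and SD of each group of 3, from left to right WT M0, KO M0, WT M2 and KO M2. Rcc1l is lower in KO in M0 (21.4 to 22.3 CPM) and higher in KO in M2 (31.6 to 33.1 CPM), and Fastkd3 is higher in KO in M0 (29.9 to 32.4 CPM) and overlaps between genotypes in M2.

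Tsfm, the exchange factor of the Tufm protein, missed the threshold in M2. It had 20.2, 19.9 and 20.5 CPM in the WT libraries against 26.7, 23.2 and 24.0 CPM in the KO libraries, without overlap (log2 fold change 0.28, SE 0.07, edgeR adjusted p = 0.0532). In M0 they were 18.7, 18.6 and 21 CPM in the WT libraries against 19.8, 20.1 and 21.5 CPM in the KO libraries. Without both libraries of the third WT culture, whose Lars2 and Gm42418 values stand apart, 3 members were called in M2 in place of 1, namely Rcc1l (0.25, edgeR adjusted p = 0.021), Tsfm (0.29, edgeR adjusted p = 0.0372) and Tbrg4, a FASTK-family gene (0.20, edgeR adjusted p = 0.0333). In M0 Fastkd2 and Fastkd3 were then called and Rcc1l was not (edgeR adjusted p = 0.0991), and for IL-4 in WT the count went from 14 to 9. The translation factor with the largest negative value in M0 was Mtif3 (-0.14, edgeR adjusted p = 0.258), and the transcription genes lay between -0.12 and 0.08 in both treatments.

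Genes of neighboring steps were counted in 6 further lists with 67 genes, chosen for their role and with earlier results of these data known. The shares of these lists are therefore descriptions, and no list was tested as a set. In M0, 11 of these (16.4%) were lower in KO and 0 were higher, where 4.27% of all genes were lower and 5.50% higher. As rounded values, 50 log2 fold changes were negative and 15 positive, with the rest rounding to 0, and the median was -0.08. They were 3 of 10 genes of mitochondrial DNA maintenance, among them Ssbp1 and Twnk (both -0.27), the single-strand binding protein and the helicase, and 3 of 16 of tRNA processing, with Pus1 (-0.29) and Trmt10c (-0.28) as the largest. A further 2 of 17 belonged to rRNA modification and ribosome assembly, Mrm1 (-0.39) and Gtpbp10 (-0.28), 2 of 11 to other translation genes, Taco1 (-0.36) and Pdf (-0.35), and 1 of 7 to RNA decay, Supv3l1 (-0.17). None of 6 elongation and termination genes was called. Only the members were followed through the alternative fits, so how far the calls in the further lists hold was not tested. In M2, 0 of the 67 genes was called with edgeR, where 12 had an unadjusted p under 0.05 (20.3% of all genes did), and the same held for the difference between the responses, with 15 (17.8% of all genes). Among the cytosolic synthetases 1 of 18 was higher in KO in M0, Farsb (0.16), and 0 in M2 with edgeR, where 3 had an unadjusted p under 0.05.

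With IL-4, 20 of the 67 genes rose (29.9%) and 7 fell (10.4%) in WT, where 24.9% of all genes rose and 25.1% fell. In KO, 29 rose (43.3%) and 4 fell (5.97%), where 26.8% of all genes rose and 26.0% fell. The deadenylase gene Pde12, which shortens the poly(A) tails of mitochondrial RNAs, had the largest rise, 1.75 in WT (SE 0.07, edgeR adjusted p = 5.18e-10) and 1.91 in KO (SE 0.07, edgeR adjusted p = 2.11e-10), in a list where 3 of 7 rose in each genotype. Tefm, the elongation factor of the mitochondrial polymerase, rose by 0.53 and 0.82, and Mterf2 fell by 1.1 and 0.74, as the 2 called of 6 in their list. Gatc and Gatb, subunits of the enzyme that makes glutaminyl-tRNA, rose by 0.67 and 0.64 in WT and by 0.69 and 0.59 in KO, among 4 and 6 of 11 other translation genes. Mitochondrial DNA maintenance was mixed, with 4 genes higher and 3 lower of 10 in WT and 5 and 2 in KO, and the polymerase gene Polg fell by 0.49 and 0.45. In tRNA processing 6 and 9 of 16 rose with 0 lower, led by Trmt10c (0.43) and Mto1 (0.42) in WT. In rRNA modification and assembly 2 rose and 3 fell of 17 in WT and 5 rose and 1 fell in KO, with Rbfa at 0.53 and 0.51 and Gtpbp10 at -0.49 and -0.27.

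Of the 11 regulators known for mitochondrial biogenesis, 10 were tested and Ppargc1a was too low to be. The coactivator Ppargc1b rose by 1.13 in WT (SE 0.17, edgeR adjusted p = 0.000134) and 1.09 in KO (SE 0.17, edgeR adjusted p = 0.000132), Myc by 0.66 and 0.94, and Atf4 by 0.32 and 0.40, all called. Gabpa, the subunit that binds the ETS motif, fell by 0.29 and 0.37. Pprc1 (0.30), Yy1 (0.12) and Gabpb1 (-0.29) were called in WT only, with 0.13, -0.03 and -0.07 in KO, and Esrra (0.27) and Gabpb2 (-0.38) in KO only, with 0.04 and -0.15 in WT. None of these 5 was called in the difference between the responses. Nrf1 itself had -0.18 in WT (edgeR adjusted p = 0.0804) and -0.10 in KO (edgeR adjusted p = 0.295). Between genotypes 0 of the 10 regulators was called with edgeR, where 3 in M0 and 4 in M2 had an unadjusted p under 0.05, as did 25.3% and 20.3% of all genes.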

How the data were processed

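Poly(A)-selected RNA of BMMs was sequenced as single-end reads of 75 nt from directional libraries, per the methods. The authors aligned to GRCm38/mm10 with Grape-nf and deposited expected counts (estimated counts per gene, not whole) and TPM for each library. The annotation release and the strand setting of the counting are not given in the sources used here, and 18 of the 37 members overlap another gene in the tables. Their DESeq2 tables of fold changes and p-values were used only for gene symbols. Coordinates came from GENCODE M21 and start regions from RefSeq, both on GRCm38.

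After rounding of the expected counts and removal of low genes with filterByExpr by group, 12846 genes were fitted with edgeR 4.0.16 (TMM, quasi-likelihood F test, 1 coefficient per group, all 12 libraries) in R 4.3.3. The biological coefficient of variation was 8.1%. P-values were adjusted over all genes with the Benjamini-Hochberg method, and calls were made at 0.05. The SE is the absolute log2 fold change divided by the square root of F. Scripts were tested on simulated data. Samples were grouped by their labels. The members and lists were chosen with earlier results of these data known. Named were all members called between genotypes or in the difference of responses, the 6 largest rises and all falls with IL-4 in WT with their KO values, the extremes of each role, at most 2 genes of each further list in M0 and with IL-4 in WT, and all regulators. Tsfm, Tbrg4, Lars2 and further uncalled members were added after their values were seen.

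Alternatives were DESeq2 1.42.0, RLE factors, other filters, a replicate block, limma 3.58.1 on log2 TPM with a pseudocount of 1 or 0.1, the 6 libraries of a comparison alone, and each library left out. Leaving out both libraries of the third WT culture was added after the data were seen. Deviations of M0 and M2 libraries of the same number from the group means correlated at 0.103 to 0.364, so that the number paired them, whereas for WT and KO this was -0.068 to 0.04.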

Additional observations from a re-analysis of the deposited data

Results flagged for a closer look

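For Rcc1l, alone among the members, the test of the difference in IL-4 response between KO and WT passed the threshold. The log2 fold change was larger in KO than in WT by 0.45 (SE 0.08, edgeR adjusted p = 0.0115), and the change from M0 to M2 was higher in all 3 KO cultures (0.52 to 0.63) than in any of the 3 WT cultures (0.03 to 0.17).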

How the results depend on the processing

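The test of KO against WT responses to IL-4 kept 1 called member, Rcc1l, under the replicate block (edgeR adjusted p = 0.00891), without both libraries of the third WT culture (0.0194), and in each fit that left 1 library out (1 to 1 members), and lost it with limma on log2(TPM + 1) (0 members, adjusted p = 0.0502). KO against WT in M0 gave 3 members, but 1 without a filter on low counts, 0 with limma on either TPM scale, 0 with the replicate block, 1 with the 6 libraries alone and 0 to 2 without 1 library. In M2 the count of 1 became 2 with DESeq2, 0 without a filter, 0 with limma on either scale, 0 with the replicate block, 0 with the 6 libraries alone, 3 without the third WT culture and 0 to 0 without 1 library. IL-4 in WT gave 14 members, 9 with limma on either scale, 9 without the third WT culture, 15 with the replicate block and 10 to 14 without 1 library. IL-4 in KO gave 23, 12 with limma on either scale, 23 with the block and 18 to 23 without 1 library. The block added Cars2 in WT and Iars2 in KO and dropped Yars2. The remaining alternatives left these counts within 1.5 times, and no member called in the report changed direction in any alternative. The cause of these shifts was not tested.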

Other observations

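The NRF1 motif was found 3 times in the start region of Fastkd3 and 3 times in that of Vars2, and 2 times in that of Polrmt, and once in those of Gfm2, Iars2, Mars2, Tfb2m and Wars2. With IL-4 in WT the first pair fell, Gfm2, Wars2 and Tfb2m rose, and Polrmt, Iars2 and Mars2 were not called. The WT calls of Vars2 and Tfb2m were lost in 6 and 5 of 9 alternatives. In KO, Vars2 was not called (log2 fold change 0.02, edgeR adjusted p = 0.862), and Polrmt rose by 0.21 (edgeR adjusted p = 0.0185), a call lost in 4 of 6 fits that left out 1 library (edgeR adjusted p up to 0.0807) and in 2 of 8 other alternatives (up to 0.273). Both sets of values are descriptions over 8 genes.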
